A study of Homo sapiens with 6 samples.

Results

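The genes described here are the solute carriers, the membrane proteins that move amino acids, sugars, ions, nucleosides, lipids and cofactors across the plasma membrane and the membranes of organelles. They were taken as every gene whose symbol has the form SLC, a number, the letter A and a number, and whose FPKM (mapped fragments per transcript length and library size) averaged at least 1 over the 5 distinct libraries. Of 202 such symbols among the 18678 genes of the table, 164 met this level and 38 did not. They were grouped by substrate into amino acids (27 genes), glucose and other sugars (13), ions (43), the SLC25 carriers, most of them of the mitochondrial inner membrane (38), and other substrates (43). The rule used the mean over both groups and not their difference, although 4 genes met it through 1 group alone. SLC2A13, SLC44A5 and SLC9A9 averaged under 1 FPKM in Cal27-shGRK2, and SLC9A2 averaged under 1 FPKM in Cal27. Just inside the level, SLC2A13 averaged 1.08 and SLC9A9 1.09 FPKM over the 5 libraries. Just outside it, SLC7A8 averaged 0.997, SLC2A12 0.992 and SLC27A2 0.968 FPKM, and SLC2A3, which encodes the glucose transporter GLUT3, averaged 0.468 FPKM.

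The study set Cal27-shGRK2 cells, which carry a short hairpin RNA against the receptor kinase GRK2, against Cal27 cells, an established human line from a squamous carcinoma of the tongue. All cells grew in DMEM with 10% fetal bovine serum and were harvested at 70% confluence. Polyadenylated RNA was sequenced from 3 libraries per group by title, but Cal27-shGRK2 replicates 0 and 1 were identical in 18678 of 18678 genes and were counted as 1 library, which leaves 2 Cal27-shGRK2 and 3 Cal27 libraries. The labels state neither the hairpin sequence, nor a control hairpin or vector in Cal27, nor how many clones were used. Separate cultures are not stated for the libraries either, so a p-value here reflects variation among these libraries alone, which may be technical.

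Amino acid carriers of the plasma membrane work in part as pairs. The light chain SLC7A5 (LAT1) takes up leucine and other large neutral amino acids only when it is joined to the heavy chain SLC3A2 (CD98), in exchange for intracellular glutamine that carriers such as SLC1A5 bring in. Facilitative glucose transporters of the SLC2 family, potassium-chloride cotransporters of the SLC12 family, zinc importers of the SLC39 family and the SLC25 carriers, which exchange nucleotides and metabolites between mitochondria and cytosol, are the other large groups described below. In squamous carcinomas SLC2A1, SLC7A5 and SLC3A2 are known as abundant carriers.

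GRK2, listed under its older symbol ADRBK1 (chr11:67266410-67286556, plus strand), was at 17.3 and 16.6 FPKM in the Cal27-shGRK2 libraries and at 55.3, 59.5 and 55.8 FPKM in the Cal27 libraries. Its log2 fold change was -1.69 ± 0.06 (SE, limma adjusted p = 3.77e-11), and an exact two-sided permutation test, with 10 possible assignments of the libraries, gave p = 0.1, the smallest such a test allows. Summed over the table, FPKM came to 590163 to 644831 in each library, and sequencing depth could not be recovered from the values. Of the squamous markers, 8 of 8 were called, against 29.6% of all genes. In Cal27-shGRK2, 6 were lower and 2, EPCAM and CDH1, were higher. FPKM of the 8 summed to 1108 and 1142 in Cal27-shGRK2 and to 2858 to 3186 in Cal27. Most of this was KRT5 (739.6 and 773.3 against 2073 to 2322 FPKM). KRT14, a basal keratin, was near 0 in Cal27-shGRK2 (0.235 and 0.160 FPKM) and at 16.5 to 20.9 FPKM in Cal27. The 5 markers of simple and glandular epithelium in the table summed to 98.1 and 103.5 FPKM in Cal27-shGRK2 and to 57.2 to 59.3 FPKM in Cal27. KRT7 carried most of that sum (82.0 and 86.4 against 43.9 to 47.6 FPKM). KRT7 and GATA3 were called higher, MUC1 and FOXA1 were not called, and KRT19 was under the level. The 2 blood and endothelial markers in the table summed to 11.3 and 10.3 against 4.33 to 5.16 FPKM, and the 4 fibroblast markers to 4.46 and 4.38 against 4.35 to 4.71 FPKM. The part of these differences in the transporter values was not tested, and in bulk RNA a change in the share of one kind of cell and a change in RNA per cell cannot be told apart.

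Solute carriers moved in both directions. Of the 164 genes, 61 (37.2%) passed limma's test on log2(FPKM + 1) at an adjusted p under 0.05, against 29.6% of all 13377 genes tested. In Cal27-shGRK2, 30 (18.3%) were higher, against 15% of all genes, and 31 (18.9%) were lower, against 14.6% of all genes. With FPKM scaled to a common total, 41 were higher and 25 lower, against 21.3% and 11.3% of all genes, and the median of all genes moved to 0.047. Of the 4 genes that met the level through 1 group alone, SLC9A2 was called higher and SLC44A5 and SLC9A9 lower, each in the direction that the level favours. Without these 4, 29 genes were higher and 29 lower, and the 3 are given below by their values only. The median log2 fold change of the 164 genes was -0.02 (0.04 with a common total), and it was -0.005 over all genes. The groups' libraries did not overlap for 104 genes (63.4%), against 53.3% of all genes. Changes were small in most cases. The median absolute log2 fold change was 0.16 over the solute carriers and 0.14 over all genes, and 4 solute carriers changed at least 2-fold on this scale, a size that 2.51% of all genes reached. Those 4 were SLC2A8, SLC48A1 and SLC25A43, which were lower, and SLC12A7, which was higher. The authors' deposited table called 36 of the 164 genes significant, against 16.8% of all genes.

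Leaving out a Cal27-shGRK2 library leaves that group with 1, which limma then takes to vary like the Cal27 libraries. Whichever of them was left out, fewer solute carriers were called in each direction, and fewer of all genes were called as well. Of the 61 genes, 28 were called in each refit that tested them (another scaling, filter, pseudocount or fit, or 1 library fewer or more) and 33 lost their call in at least 1 of them, while 0 reversed direction. The 28 were 6 amino acid carriers, all lower, 2 sugar carriers, 6 ion carriers, all higher, 3 SLC25 carriers, all lower, and 11 carriers of other substrates, of which 4 were higher and 7 lower. Of the 28, 26 met the level in both groups, SLC9A2 and SLC44A5 being the exceptions. The matching share over all genes is not given here, so these counts describe the carriers alone.

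**Figure D1:**
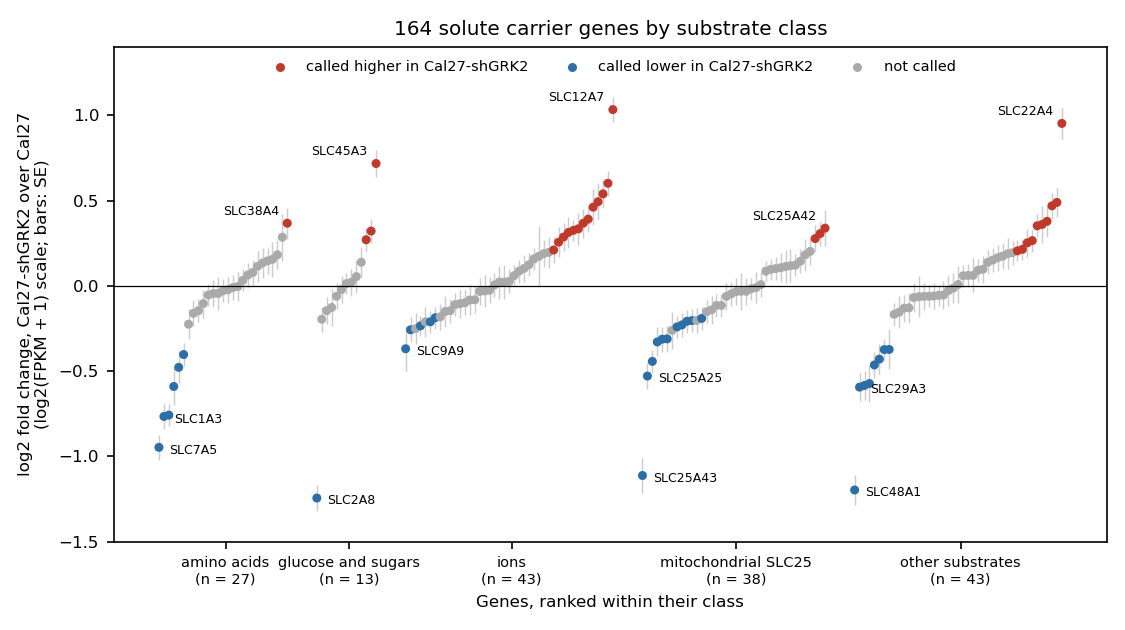
Log2 fold change of Cal27-shGRK2 over Cal27 on the log2(FPKM + 1) scale (vertical axis) for the 164 solute carrier genes, ranked within their substrate class along the horizontal axis. Each point is a gene with its standard error as a bar, red where called higher, blue where called lower and grey where not called. The amino acid class has 6 blue points and 1 red one, whereas the ion class has 13 red points and 5 blue ones, and in every class most points lie near 0.

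Of the 27 amino acid carriers, 7 (25.9%) were called, against 29.6% of all genes. In Cal27-shGRK2, 6 (22.2%) were lower, against 14.6% of all genes, and 1 (3.7%) was higher, against 15%. With a common total 6 were lower and 2 higher. The median log2 fold change was -0.03, and 0.03 with a common total. By the authors' deposited call, 8 of the 27 were significant, against 16.8% of all genes. The 6 lower genes include both chains of the LAT1 heterodimer, which averaged more FPKM than any other carrier of the class in Cal27 but less than SLC38A2 in Cal27-shGRK2.

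SLC7A5 (chr16:87830023-87869488, minus strand), the LAT1 light chain, had 229.8 and 234.6 FPKM in the Cal27-shGRK2 libraries, against 419.8, 501.4 and 428.9 FPKM in the Cal27 libraries. Both Cal27-shGRK2 values lay far below the lowest Cal27 value. The ratio of means was 0.516 and the log2 fold change -0.95 ± 0.07 (SE, limma adjusted p = 1.92e-07). SLC3A2 (chr11:62856102-62888875, plus strand), the CD98 heavy chain that carries SLC7A5 to the cell surface, had 215.8 and 214.0 FPKM in Cal27-shGRK2 and 354.7, 389.4 and 349.6 FPKM in Cal27. The groups were again apart, with a ratio of 0.590 and a log2 fold change of -0.76 ± 0.06 (limma adjusted p = 2.34e-07). The light chain differed by the larger factor, so that the ratio of SLC7A5 to SLC3A2 was 1.06 and 1.10 in Cal27-shGRK2 and 1.18, 1.29 and 1.23 in Cal27. Pseudogenes of SLC7A5 on the same chromosome can share its reads.

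The promoters of this pair are shown because the genes encode the 2 chains of one transporter and were lower together. Each is the 300 bases from 250 before to 50 after the RefSeq transcript start on GRCh38.p14, written 5' to 3' on the gene's strand. Capitals mark matches, on either strand, to the E-box CACGTG, to the amino acid response element TGATGNAA that ATF4 and CHOP recognise, and to the AP-1 motif TGANTCA. SLC7A5 is at chr16:87869458-87869757 (minus strand) and SLC3A2 at chr11:62881449-62881748 (plus strand), a RefSeq start that lies within the longer gene of the GENCODE annotation.
SLC7A5: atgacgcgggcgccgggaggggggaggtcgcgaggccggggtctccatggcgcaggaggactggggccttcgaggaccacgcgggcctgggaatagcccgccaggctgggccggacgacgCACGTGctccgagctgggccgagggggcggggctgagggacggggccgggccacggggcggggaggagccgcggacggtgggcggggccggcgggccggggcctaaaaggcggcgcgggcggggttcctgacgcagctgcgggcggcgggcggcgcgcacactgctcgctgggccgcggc
SLC3A2: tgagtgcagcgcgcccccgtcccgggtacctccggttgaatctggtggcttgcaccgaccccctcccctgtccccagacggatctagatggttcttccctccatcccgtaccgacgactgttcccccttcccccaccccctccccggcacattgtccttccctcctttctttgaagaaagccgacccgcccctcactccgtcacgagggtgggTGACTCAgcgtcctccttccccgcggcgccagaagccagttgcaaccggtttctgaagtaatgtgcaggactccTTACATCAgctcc
The SLC7A5 window held 1 E-box and no match to the other motifs. The SLC3A2 window held 1 AP-1 match (TGACTCA) and, after the transcript start, 1 match to the amino acid response element on the other strand (TTACATCA), and no E-box. These are matches of letters, not measured binding.

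The glutamine carrier SLC1A5 (ASCT2) had 87.2 and 85.7 FPKM in Cal27-shGRK2, against 112.0, 125.8 and 106.8 FPKM in Cal27. It was lower in both Cal27-shGRK2 libraries, by a log2 fold change of -0.40 ± 0.07 (limma adjusted p = 0.000443). An exon of another gene on the opposite strand overlaps one of 65 of the 164 carriers, and the authors' strand setting is not given in the sources used. SLC1A3, a glutamate and aspartate carrier better known from glia, had 11.2 and 12.1 FPKM in Cal27-shGRK2 and 19.6, 19.9 and 22.1 FPKM in Cal27, with a log2 fold change of -0.77 ± 0.07 (limma adjusted p = 1.47e-06). SLC38A5, a sodium-coupled carrier of glutamine and other neutral amino acids, had 2.15 and 2.94 against 4.12, 4.74 and 4.07 FPKM, with a log2 fold change of -0.59 ± 0.11 (limma adjusted p = 0.000704). The creatine carrier SLC6A8 had 24.4 and 27.2 against 32.0, 40.9 and 36.6 FPKM, with a log2 fold change of -0.48 ± 0.09 (limma adjusted p = 0.00268). SLC6A8 has near-identical copies elsewhere in the human genome that can share its reads, so its value is uncertain. All 4 genes were lower in both Cal27-shGRK2 libraries than in any Cal27 library.

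The 1 amino acid carrier called higher was SLC38A4, a sodium-coupled carrier related to SLC38A5. Its levels were 3.72 and 3.87 FPKM in Cal27-shGRK2 and 2.77, 2.71 and 2.67 FPKM in Cal27, with a log2 fold change of 0.37 ± 0.09 (limma adjusted p = 0.0061). Without Cal27-shGRK2 replicate 2 its limma adjusted p was 0.059, and over the refits it lay between 0.0012 and 0.059. SLC38A2, the abundant sodium-coupled carrier that cells induce on amino acid shortage, had 251.4 and 269.6 FPKM in Cal27-shGRK2 and 254.7, 276.7 and 280.2 FPKM in Cal27. These values overlapped, and the gene was not called. SLC7A11, the cystine-glutamate exchanger of the xCT system and another light chain of SLC3A2, had 3.61 and 4.04 against 4.64, 4.59 and 4.67 FPKM. It missed the threshold (log2 fold change -0.23 ± 0.09, limma adjusted p = 0.0665, between 0.019 and 0.34 over the refits), although the authors' deposited table called it significant. The cationic amino acid carrier SLC7A1 and the light chain SLC7A6 were not called, with log2 fold changes of -0.02 and -0.01.

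**Figure D2:**
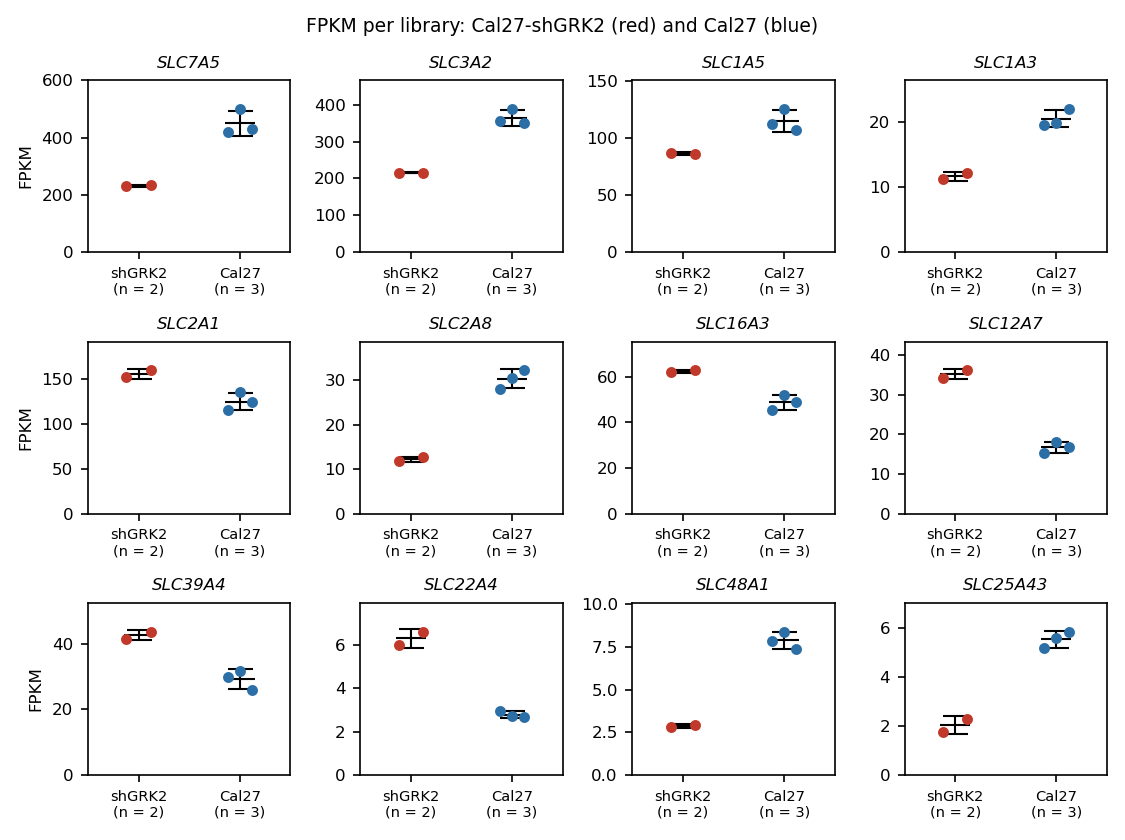
FPKM (vertical axes, each starting at 0) in each library of Cal27-shGRK2 (red, n = 2, left) and Cal27 (blue, n = 3, right) for 12 solute carrier genes, with bars for the mean and SD. All 12 are called genes. In all 12 panels the libraries of the groups do not overlap, which also holds for 53.3% of all genes tested. In SLC7A5, SLC3A2, SLC1A5, SLC1A3, SLC2A8, SLC48A1 and SLC25A43 the Cal27-shGRK2 libraries are the lower ones.

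Among the sugar carriers the main glucose transporter was higher and an intracellular hexose transporter was lower. Of 13 genes, 4 (30.8%) were called, close to the 29.6% of all genes. These were 3 higher and 1 lower, or 3 and 2 after quantile normalization, and the median log2 fold change was 0.01. Some of these calls were lost without Cal27-shGRK2 replicate 2. The authors' deposited call marked 4 of the 13 as significant, against 16.8% of all genes.

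SLC2A8 (GLUT8; chr9:127397138-127408424, plus strand), a hexose transporter held mostly in endosomes and lysosomes, had the largest fall of the 164 genes. It had 11.8 and 12.7 FPKM in Cal27-shGRK2, against 28.1, 30.6 and 32.3 FPKM in Cal27. The highest Cal27-shGRK2 library was below the lowest Cal27 library, the ratio of means was 0.403, and the log2 fold change was -1.24 ± 0.07 (limma adjusted p = 6.01e-09). Its promoter, at chr9:127396919-127397218 (plus strand, GRCh38.p14), is shown as that of the gene that fell most, in the same window and with the same motifs searched as above.
SLC2A8: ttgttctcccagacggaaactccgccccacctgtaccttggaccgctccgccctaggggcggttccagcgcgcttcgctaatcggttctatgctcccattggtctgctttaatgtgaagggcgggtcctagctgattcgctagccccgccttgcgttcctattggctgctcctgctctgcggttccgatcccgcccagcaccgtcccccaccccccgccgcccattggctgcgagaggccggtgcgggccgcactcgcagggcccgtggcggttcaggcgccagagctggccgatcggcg
No match to the E-box, the amino acid response element or the AP-1 motif was found in this window, so it has no capitals.

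SLC2A1, which encodes GLUT1 and was the most abundant sugar carrier, had 152.2 and 160.1 FPKM in Cal27-shGRK2 and 115.5, 135.4 and 124.2 FPKM in Cal27. The groups did not overlap, and the log2 fold change was 0.32 ± 0.07 (limma adjusted p = 0.00255). Without Cal27-shGRK2 replicate 2 the limma adjusted p was 0.052, and it lay between 9.9e-05 and 0.052 over the refits. SLC2A6 (GLUT6), a lysosomal hexose transporter, had 34.7 and 36.1 against 28.2, 31.0 and 28.4 FPKM, with a log2 fold change of 0.27 ± 0.07 (limma adjusted p = 0.00608, and 0.076 without Cal27-shGRK2 replicate 2, within a range of 0.00081 to 0.076). SLC45A3, of the family related to plant sucrose carriers, had 7.91 and 8.31 against 4.57, 4.36 and 4.71 FPKM, with a log2 fold change of 0.72 ± 0.08 (limma adjusted p = 7.28e-06). It was called in each refit. SLC50A1, the human relative of the plant SWEET sugar exporters, was level at 40.9 and 43.4 against 41.0, 40.8 and 43.6 FPKM and was not called.

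Of the 43 ion carriers, 13 (30.2%) were higher in Cal27-shGRK2, against 15% of all genes. Lower were 5 (11.6%), against 14.6% of all genes, and 25 were not called, with a median log2 fold change of 0.03. With a common total 15 were higher and 2 lower. Without SLC9A2 and SLC9A9, which met the level through 1 group, 12 were higher and 4 lower. The counts rest on both Cal27-shGRK2 libraries, since fewer genes were called with either left out, in this class and over all genes. By the authors' deposited call, 8 of the 43 ion carriers were significant, against 16.8% of all genes. Among the ion carriers at the level in both groups, 5 calls held in each refit, those of SLC12A7, SLC39A13, SLC39A4, SLC26A2 and SLC20A1.

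SLC12A7 (KCC4; chr5:1050376-1112035, minus strand), a potassium-chloride cotransporter of cell volume control, had the largest rise of the 164 genes. It had 34.2 and 36.2 FPKM in Cal27-shGRK2, against 15.4, 18.1 and 16.7 FPKM in Cal27. No library of either group came near the other group, the ratio of means was 2.1, and the log2 fold change was 1.03 ± 0.07 (limma adjusted p = 5.69e-08). Its promoter, at chr5:1112014-1112313 (minus strand, GRCh38.p14), is shown as that of the gene that rose most.
SLC12A7: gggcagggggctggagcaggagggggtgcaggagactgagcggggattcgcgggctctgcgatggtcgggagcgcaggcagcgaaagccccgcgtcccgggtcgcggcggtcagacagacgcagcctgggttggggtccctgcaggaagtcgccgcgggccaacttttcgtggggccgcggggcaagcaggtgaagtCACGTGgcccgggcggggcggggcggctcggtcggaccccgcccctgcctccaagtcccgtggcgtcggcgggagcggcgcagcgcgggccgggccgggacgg
It held 1 E-box, in capitals, and no match to the amino acid response element or the AP-1 motif. Its relative SLC12A4 (KCC1) had 14.8 and 14.7 against 15.4, 18.2 and 17.1 FPKM and was not called (log2 fold change -0.18). The sodium-potassium-chloride cotransporter SLC12A2, which brings chloride into cells, was also not called, at 9.58 and 9.58 against 9.28, 10.3 and 9.76 FPKM.

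Of the 16 zinc carriers, 3 were higher and 3 lower, 18.8% each way, against 15% and 14.6% of all genes. SLC39A4 (ZIP4), a zinc importer of the plasma membrane, had 41.6 and 43.7 FPKM in Cal27-shGRK2 and 29.8, 31.8 and 25.8 FPKM in Cal27, with a log2 fold change of 0.54 ± 0.08 (limma adjusted p = 0.00014). SLC39A13 (ZIP13), an intracellular member of the family, had 22.0 and 23.2 against 13.5, 14.9 and 15.4 FPKM, with a log2 fold change of 0.60 ± 0.07 (limma adjusted p = 1.69e-05). In both genes every Cal27-shGRK2 library was above every Cal27 library. SLC39A8 (ZIP8), which also carries manganese, was the third gene higher, by a log2 fold change of 0.29 ± 0.08 (limma adjusted p = 0.0165), but was not called without Cal27-shGRK2 replicate 2 (0.18) or without Cal27 replicate 2 (0.05), within a range of 0.0046 to 0.18.

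The 3 lower zinc importers differed by smaller amounts and included SLC39A7 (ZIP7) of the endoplasmic reticulum. It had 55.0 and 53.2 FPKM in Cal27-shGRK2 and 63.2, 64.5 and 63.8 FPKM in Cal27, a log2 fold change of -0.23 ± 0.06 (limma adjusted p = 0.00712, and 0.075 without Cal27-shGRK2 replicate 2, within a range of 0.0016 to 0.075). SLC39A9 (log2 fold change -0.21, limma adjusted p = 0.0213) was lost in 5 refits and SLC39A14 (-0.19, 0.0403) in 9. The limma adjusted p of SLC39A9 lay between 0.0051 and 0.11, and that of SLC39A14 between 0.008 and 0.26. Without Cal27-shGRK2 replicates 0 and 2 in turn it was 0.11 and 0.095 for SLC39A9 and 0.26 and 0.081 for SLC39A14. Without Cal27 replicate 0 it was 0.07 for SLC39A9, and without Cal27 replicates 1 and 2 it was 0.073 and 0.069 for SLC39A14. Of the SLC30 zinc exporters, 0 of 5 were called by limma (1 had an unadjusted p under 0.05), among them the plasma membrane exporter SLC30A1 (-0.10). The most abundant zinc carrier, SLC39A1 (ZIP1), was at 168.7 and 177.1 against 156.9, 173.9 and 167.1 FPKM, which overlapped, and it was not called. SLC39A6 and SLC39A10, importers that act as a heteromer, had log2 fold changes of 0.01 and -0.21 and were not called.

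Phosphate and sulfate carriers were among the other calls that held in each refit. The phosphate importer SLC20A1 (PiT1) had 58.5 and 61.5 FPKM in Cal27-shGRK2 and 48.3, 49.0 and 46.0 FPKM in Cal27, with a log2 fold change of 0.33 ± 0.06 (limma adjusted p = 0.000942). The sulfate carrier SLC26A2 had 9.66 and 10.4 against 7.02, 7.72 and 7.5 FPKM, with a log2 fold change of 0.39 ± 0.08 (limma adjusted p = 0.00138). SLC9A2 (NHE2), a sodium-proton exchanger of epithelia, was low, at 1.55 and 1.5 against 0.699, 0.859 and 0.831 FPKM, and met the level through Cal27-shGRK2 alone. SLC20A1 and SLC26A2 were above every Cal27 library in both Cal27-shGRK2 libraries. The sodium-calcium exchanger SLC8A1 had 2.23 and 1.98 against 1.14, 1.29 and 1.32 FPKM (log2 fold change 0.46 ± 0.10, limma adjusted p = 0.00334), and its adjusted p was 0.057 without Cal27-shGRK2 replicate 0, within a range of 0.00068 to 0.057 over the refits.

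Outside the zinc family the anion exchanger SLC26A6 was lower. It had 8.37 and 8.13 FPKM in Cal27-shGRK2 and 10.0, 10.3 and 9.90 FPKM in Cal27 (log2 fold change -0.26 ± 0.07, limma adjusted p = 0.0148). Without Cal27-shGRK2 replicates 0 and 2 in turn its adjusted p was 0.063 and 0.1, within a range of 0.006 to 0.1. SLC9A9 (NHE9), a sodium-proton exchanger of endosomes, had 0.823 and 0.708 FPKM in Cal27-shGRK2 and 1.67, 1.29 and 0.937 FPKM in Cal27, and met the level through Cal27 alone. The bicarbonate carrier SLC4A7 had a log2 fold change of -0.03 and was not called, nor was the abundant anion exchanger SLC4A2 (-0.15).

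The SLC25 carriers were the most abundant class, and their 3 most abundant genes were not called. Of 38 genes, 11 (28.9%) were lower, against 14.6% of all genes, 3 (7.89%) were higher, against 15%, and 24 were not called. With a common total 8 were lower and 5 higher. The median log2 fold change was -0.04, and 0.007 with a common total. Here too the count rests on both Cal27-shGRK2 libraries, with fewer genes called when either was left out, in this class and over all genes. The authors' deposited call marked 5 of the 38 as significant, against 16.8% of all genes. The phosphate carrier SLC25A3 had 542.3 and 610.5 FPKM in Cal27-shGRK2 and 574.6, 615 and 531.2 FPKM in Cal27. The adenine nucleotide translocator SLC25A5 (ANT2) had 430.1 and 473.1 against 490.4, 532.2 and 483.2 FPKM. SLC25A39, which carries glutathione into mitochondria, had 201.1 and 212.6 against 198.2, 222 and 208.7 FPKM. In SLC25A3 and SLC25A39 the groups overlapped, and in SLC25A5 they did not (log2 fold change -0.15 ± 0.07, limma adjusted p = 0.098, 0.036 to 0.52 over the refits).

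The 3 calls that held in each refit were SLC25A43, SLC25A25 and SLC25A17. SLC25A43 (chrX:119399060-119454478, plus strand), whose substrate is not settled, had 1.77 and 2.30 FPKM in Cal27-shGRK2 and 5.19, 5.59 and 5.86 FPKM in Cal27. Both Cal27-shGRK2 values were under every Cal27 value, at a ratio of 0.367 and a log2 fold change of -1.11 ± 0.10 (limma adjusted p = 5.62e-07). SLC25A25, the calcium-regulated carrier that exchanges ATP-magnesium for phosphate, had 9.03 and 8.90 against 12.5, 13.9 and 13.7 FPKM, with a log2 fold change of -0.53 ± 0.07 (limma adjusted p = 6.66e-05). SLC25A17, the family member of the peroxisomal membrane, had 21.8 and 22.4 against 30.2, 29.1 and 31.9 FPKM, with a log2 fold change of -0.44 ± 0.07 (limma adjusted p = 0.000106). SLC25A25 shares exon sequence with NAIF1 and its own antisense gene on the opposite strand.

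Lower as well were the carnitine-acylcarnitine carrier SLC25A20, the translocator SLC25A4 (ANT1) and the aspartate-glutamate carrier SLC25A12 (aralar). Their log2 fold changes were -0.33 ± 0.09, -0.31 ± 0.07 and -0.31 ± 0.07, with limma adjusted p of 0.00836, 0.00475 and 0.00552. Without Cal27-shGRK2 replicate 0 the adjusted p was 0.082 for SLC25A20, 0.076 for SLC25A4 and 0.066 for SLC25A12, in each case the highest over the refits, and the lowest were 0.0027, 0.0015 and 0.0019. SLC25A13, the other aspartate-glutamate carrier, was not called (37.9 and 43.0 against 38.6, 38.0 and 36.2 FPKM), nor was the citrate carrier SLC25A1 (73.6 and 76.5 against 68.7, 73.2 and 65.0 FPKM). The translocator SLC25A6 (ANT3) was called lower at -0.21 ± 0.07 (limma adjusted p = 0.0285) and lost the call in 6 refits, with adjusted p between 0.011 and 0.19. Among those were the refits without Cal27-shGRK2 replicate 0 (0.19), Cal27-shGRK2 replicate 2 (0.086) and Cal27 replicate 1 (0.057). SLC25A5 and SLC25A6 are closely similar in sequence and have processed pseudogenes, so the division of reads between them is uncertain.

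The 3 higher carriers of the family were SLC25A42, which imports coenzyme A, the dicarboxylate carrier SLC25A10 and SLC25A30. SLC25A10 had 48.1 and 49.9 FPKM in Cal27-shGRK2 and 37.5, 43.1 and 38.0 FPKM in Cal27 (log2 fold change 0.31 ± 0.07, limma adjusted p = 0.00403), and its adjusted p was 0.062 without Cal27-shGRK2 replicate 2, within a range of 0.00029 to 0.062. SLC25A42 (log2 fold change 0.34, limma adjusted p = 0.0236) lost its call in 6 refits and SLC25A30 (0.28, 0.0182) in 4, including those without either Cal27-shGRK2 library and without Cal27 replicate 0. Their adjusted p over the refits lay between 0.012 and 0.13 for SLC25A42 and between 0.0064 and 0.099 for SLC25A30. Without Cal27-shGRK2 replicates 0 and 2 in turn it was 0.1 and 0.13 for SLC25A42 and 0.093 and 0.099 for SLC25A30, and without Cal27 replicate 0 it was 0.064 and 0.059. Without Cal27 replicate 1 it was 0.058 for SLC25A42.

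Carriers of other substrates were called in both directions, 10 higher (23.3%, against 15% of all genes) and 8 lower (18.6%, against 14.6%) of 43, with a median log2 fold change of 0.01. With a common total 16 were higher and 8 lower. Without SLC44A5, which met the level through Cal27 alone, 7 were lower. Fewer genes of this class were called with either Cal27-shGRK2 library left out, as over all genes. The authors' deposited call marked 11 of the 43, against 16.8% of all genes. SLC48A1 (HRG1; chr12:47753916-47782753, plus strand), which moves heme out of endosomes and lysosomes, had 2.79 and 2.94 FPKM in Cal27-shGRK2 and 7.86, 8.38 and 7.38 FPKM in Cal27. The groups were apart by more than the spread of either, at a ratio of 0.364 and a log2 fold change of -1.20 ± 0.09 (limma adjusted p = 4.97e-08). Exons of SLC48A1 overlap RAPGEF3 and HDAC7 on the opposite strand. SLC22A4 (OCTN1; chr5:132294443-132344206, plus strand), a carrier of ergothioneine, had 6 and 6.63 FPKM in Cal27-shGRK2 and 2.96, 2.71 and 2.66 FPKM in Cal27. Every Cal27-shGRK2 value was above every Cal27 value, at a ratio of 2.27 and a log2 fold change of 0.95 ± 0.09 (limma adjusted p = 1.08e-06). Its chromosomal neighbour SLC22A5 (OCTN2), the carnitine importer, had 7.47 and 7.94 against 6.08, 6.18 and 6.67 FPKM (log2 fold change 0.25 ± 0.08, limma adjusted p = 0.028). That call was lost in 6 refits, with adjusted p between 0.01 and 0.18, among them those without Cal27-shGRK2 replicate 2 (0.18), Cal27-shGRK2 replicate 0 (0.075), Cal27 replicate 0 (0.069) and Cal27 replicate 1 (0.054).

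Of the 3 nucleoside carriers of the SLC29 family, 2 were lower. The lysosomal transporter SLC29A3 (ENT3) had 4.3 and 4.2 FPKM in Cal27-shGRK2 and 6.86, 7.30 and 6.64 FPKM in Cal27 (log2 fold change -0.59 ± 0.08, limma adjusted p = 5.34e-05). SLC29A2 (ENT2) had 19.4 and 19.0 against 24.6, 26.1 and 24.9 FPKM (-0.37 ± 0.07, limma adjusted p = 0.000432). In both genes the groups did not overlap, and both calls held in each refit. SLC29A1 (ENT1), the most abundant of the family, had 33.8 and 35.7 against 35.2, 38.5 and 35.3 FPKM and was not called. The purine nucleobase carrier SLC43A3, the most abundant gene of the class, was higher at 212.9 and 208.7 against 166.9, 189.8 and 169.8 FPKM (0.27 ± 0.07, limma adjusted p = 0.00655). Its adjusted p was 0.068 without Cal27-shGRK2 replicate 0, within a range of 0.00078 to 0.074 over the refits.

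Of the monocarboxylate carriers that move lactate, SLC16A3 was higher and SLC16A1 was not called. SLC16A3 (MCT4), the exporter of highly glycolytic cells, had 61.9 and 62.8 FPKM in Cal27-shGRK2 and 45.2, 52.0 and 49.0 FPKM in Cal27, with no overlap and a log2 fold change of 0.35 ± 0.07 (limma adjusted p = 0.000994). It was called in each refit but not in the authors' deposited table, and an exon of it overlaps CSNK1D on the opposite strand. SLC16A1 (MCT1), the widely expressed lactate carrier, had 40.2 and 41.6 against 43.5, 42.4 and 41.9 FPKM and was not called (log2 fold change -0.06 ± 0.06). Whether the log2 fold changes of SLC16A3 and SLC16A1 differ from each other was not tested. Of the orphan and less studied relatives, SLC16A5 was lower (4.79 and 5.08 against 6.94, 7.61 and 6.46 FPKM, log2 fold change -0.43). SLC16A6 was higher (1.82 and 1.66 against 1.31, 1.11 and 1 FPKM, 0.36), and it lost its call without Cal27-shGRK2 replicate 0 (limma adjusted p = 0.15), Cal27-shGRK2 replicate 2 (0.069) and Cal27 replicate 2 (0.063), within a range of 0.0046 to 0.15.

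Lipid-related carriers were split. The fatty acid transport protein SLC27A4 (FATP4) was lower, at 10.5 and 11 FPKM in Cal27-shGRK2 and 14.8, 16.6 and 14.4 FPKM in Cal27 (log2 fold change -0.46 ± 0.08, limma adjusted p = 0.000286). SLC27A1 (FATP1) was higher, at 3.51 and 3.48 against 2.48, 2.60 and 2.30 FPKM (0.38 ± 0.09, limma adjusted p = 0.00636), with an adjusted p of 0.053 without Cal27-shGRK2 replicate 0 and a range of 0.002 to 0.053. Of the choline transporter-like genes, SLC44A3 was higher (9.41 and 8.76 against 5.98, 6.72 and 5.88 FPKM, log2 fold change 0.49), a call that held in each refit. SLC44A5, which met the level through Cal27 alone, had 0.707 and 0.686 FPKM in Cal27-shGRK2 and 1.60, 1.33 and 1.65 FPKM in Cal27. The abundant SLC44A2 was higher by 0.21 (limma adjusted p = 0.0177) and lost its call in 5 refits, with adjusted p between 0.0025 and 0.18. Among these were the refits without Cal27-shGRK2 replicate 0 (0.12), Cal27-shGRK2 replicate 2 (0.077) and Cal27 replicate 0 (0.082). In the SLC22 family, SLC22A18 was higher (19.0 and 21.7 against 14.1, 14 and 15.2 FPKM, 0.47) and the orphan SLC22A23 lower (3.6 and 3.91 against 6.01, 6.24 and 6.14 FPKM, -0.58). SLC22A18 overlaps the antisense gene SLC22A18AS, so its reads may not all be its own.

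Within several families the shares of the member genes differed between the groups. The potassium-chloride cotransporters SLC12A7 and SLC12A4 summed to 49.0 and 50.9 FPKM in Cal27-shGRK2 and to 30.8, 36.3 and 33.8 FPKM in Cal27. SLC12A7 made up 69.8% and 71.1% of that sum in Cal27-shGRK2 and 50%, 49.9% and 49.4% in Cal27, where SLC12A4 was level with it or slightly ahead. The 5 SLC2 genes summed to 209.4 and 219.9 FPKM in Cal27-shGRK2 and to 183.6, 208.8 and 198.2 FPKM in Cal27. Within them SLC2A1 made up 72.7% and 72.8% in Cal27-shGRK2 and 62.7% to 64.9% in Cal27, while SLC2A8 made up 5.63% and 5.76% against 14.7% to 16.3%. The shares of SLC2A1 and SLC2A8 thus did not overlap between the groups. SLC22A4 made up 44.5% and 45.5% of the FPKM of SLC22A4 and SLC22A5 in Cal27-shGRK2 and 28.5% to 32.7% in Cal27. By contrast, the 3 adenine nucleotide translocators kept close shares, with SLC25A5 at 76.3% and 77.2% in Cal27-shGRK2 and 75.6% to 76.4% in Cal27. The small share of SLC25A4 did not overlap, at 1.57% in both Cal27-shGRK2 libraries and 1.67% to 1.86% in Cal27. The 11 SLC39 genes summed to 401.1 and 421.3 FPKM in Cal27-shGRK2 and to 392.6, 414.8 and 397.2 FPKM in Cal27, although 6 of them were called.

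**Figure D3:**
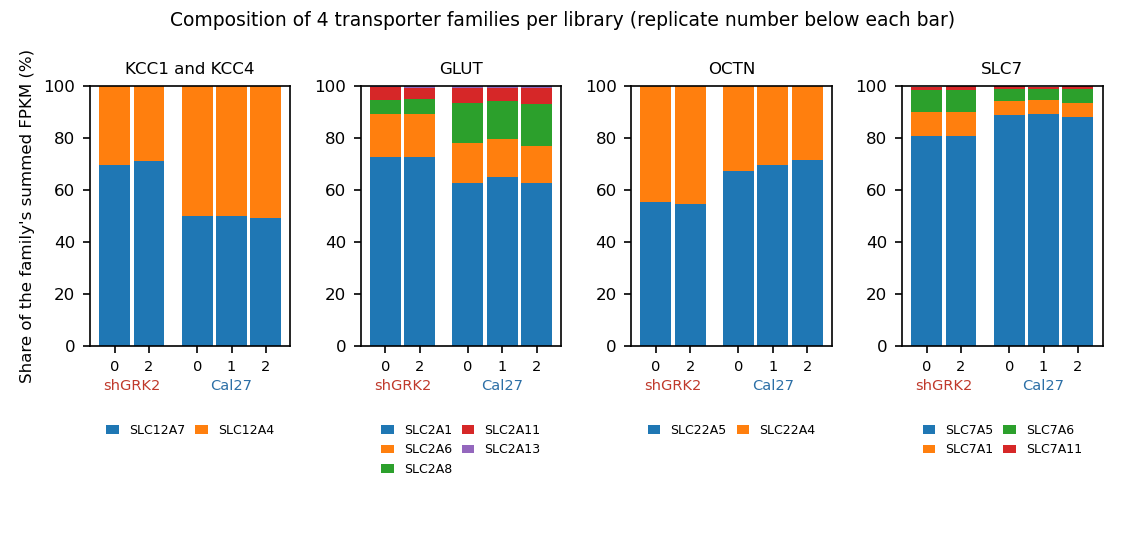
Share of a family's summed FPKM held by each gene (stacked bars to 100%, vertical axis in percent) in the Cal27-shGRK2 libraries (left bars, replicates 0 and 2) and the Cal27 libraries (right bars, replicates 0, 1 and 2) for the potassium-chloride cotransporters SLC12A7 and SLC12A4, the SLC2 glucose transporters, the OCTN pair and the SLC7 genes. The SLC12A7 segment is at 69.8% and 71.1% against 49.4% to 50%, and the SLC2A8 segment at 5.63% and 5.76% against 14.7% to 16.3%.

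Summed over each class, FPKM was lower in Cal27-shGRK2 for the amino acid carriers and differed by less for the other classes. The 27 amino acid carriers summed to 1120 and 1160 FPKM in Cal27-shGRK2 and to 1488, 1670 and 1530 FPKM in Cal27. Within the class, SLC7A5 and SLC3A2 had the largest differences in FPKM. The ion carriers summed to 872.3 and 908.8 against 833.3, 880.6 and 839.4 FPKM, and the sugar carriers to 305.9 and 319.0 against 276.3, 302.6 and 297.5 FPKM. The SLC25 carriers summed to 1953 and 2115 against 2067, 2217 and 2045 FPKM. Only the amino acid and sugar sums and that of the other substrates (982.1 and 999.2 against 887.1, 973.2 and 909.3 FPKM) had no overlap between the groups.

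Promoter letters were compared over the 133 solute carriers of 164 whose symbol was found in the RefSeq table. The E-box CACGTG was found in 19 of them (14.3%), against 7.43% of the 27305 promoters of the table. The median GC content was 67% in the solute carriers and 58.3% in the table, and its part in that share was not tested. The amino acid response element TGATGNAA was found in 8 (6.02%), against 3.67% of the table, and the AP-1 motif TGANTCA in 7 (5.26%), against 7.76%. Split by call, the amino acid response element was in 0 of 24 promoters of higher carriers, in 4 of 25 of lower carriers and in 4 of 84 of carriers not called. The E-box was in 5 of 24, 2 of 25 and 12 of 84 of them in the same order, and the AP-1 motif in 1, 3 and 3. SLC3A2, printed above, is one of the 4 lower carriers with the amino acid response element, and SLC7A5 is not.

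Some carriers changed together with their chromosomal neighbours. This was looked at after the values were seen. Around SLC2A8, SLC25A25 and SLC27A4, which lie within 2 Mb of each other on chromosome 9, 58 genes were tested in the 2 Mb that begin at the start of SLC2A8. Of these, 40 (69%) were called lower in Cal27-shGRK2 and 2 higher, against 14.6% and 15% of all genes, and their median log2 fold change was -0.42. The 3 carriers, at -1.24, -0.53 and -0.46, are among the 40. In the 2 Mb before SLC2A8, 0 of 8 genes were called lower by limma (0 had an unadjusted p under 0.05 and a negative fold change) with a median of 0.03, and in the 2 Mb after the stretch 2 of 19 were lower with a median of 0.04. SLC2A6, farther along the chromosome at 6.08 Mb from the start of SLC2A8, was called higher. FPKM of the 58 genes summed to 3562 and 3759 in Cal27-shGRK2 and to 4708, 5098 and 4856 in Cal27. Over the 15 refits the number called lower lay between 35 and 41 and the median between -0.48 and -0.38. Whether the differences of the 3 carriers are separate from that of the stretch was not tested.

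**Figure D4:**
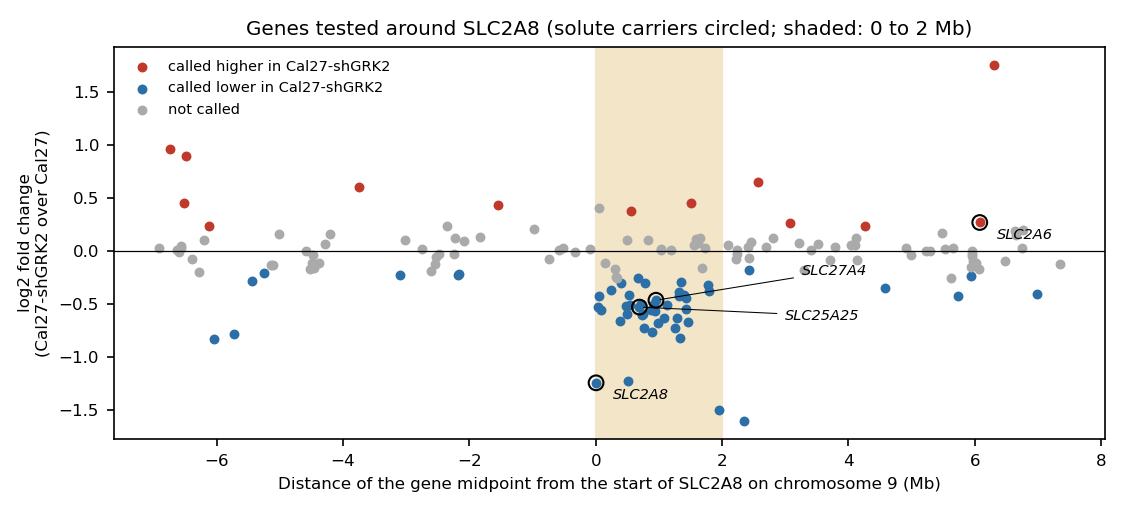
Log2 fold change of Cal27-shGRK2 over Cal27 (vertical axis, log2(FPKM + 1) scale) of each gene tested against the distance of its midpoint from the start of SLC2A8 in Mb (horizontal axis), red where called higher, blue where called lower and grey where not called, with solute carriers circled. In the shaded stretch of 0 to 2 Mb, 40 of 58 genes are blue and the median is -0.42, whereas the medians of the 2 Mb on either side are 0.03 and 0.04.

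Around other leading carriers the medians of the neighbours were nearer to 0. The 19 genes tested within 1 Mb of SLC7A5 had a median log2 fold change of 0.07, the 41 around SLC3A2 of -0.02, and the 19 around SLC12A7 of -0.01. The 16 genes around SLC48A1 had a median of -0.08 and the 15 around SLC25A43 of -0.15. Of the 19 genes around SLC22A4, 7 were higher and 0 were lower by limma's adjusted p (1 had an unadjusted p under 0.05 and a negative fold change), with a median of 0.15. The 11 genes around SLC44A3 had a median of 0.25, with 5 higher and 1 lower. Of the 147 carriers with at least 5 neighbours tested, 4 had a neighbour median of -0.2 or lower and 3 of 0.2 or higher. The lowest of these medians was -0.54, below the -0.42 within 1 Mb of SLC2A8, and the highest was 0.43.

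Genes that act with the carriers were called in both directions, and their shares are set against the 29.6% called of all genes. Of 18 genes of the response to amino acid shortage, a response that ATF4 drives and whose known targets include SLC7A11 and SLC3A2, 6 were higher and 4 lower (55.6% called), and their median was -0.02. ATF4 itself was not called (log2 fold change -0.14, limma adjusted p = 0.101), VLDLR (0.78) and STC2 (0.68) were higher, and NUPR1 (-0.89) and DDIT4 (-0.64) were lower. Of 24 genes of glycolysis and lactate handling, 2 were higher and 9 lower (45.8%), with a median of -0.17. The lower ones included the chaperones of the lactate carriers, BSG (415.1 and 417.5 against 483.2, 554.8 and 468.7 FPKM, -0.27) and EMB (5.40 and 5.96 against 9.27, 8.62 and 9.70 FPKM, -0.61), and PFKFB3 (-0.69), which makes an activator of glycolysis. SLC2A1 and SLC16A3, on the same route, were higher, as given above.

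Of 16 genes of zinc, copper and iron handling, 4 were higher and 3 lower (43.8% called, against 29.6% of all genes). The metallothionein MT1X, which binds zinc and is induced by it, had 59.4 and 67.7 FPKM in Cal27-shGRK2 and 142.7, 145.3 and 144.7 FPKM in Cal27 (log2 fold change -1.17), while MT1M, a relative with similar sequence, was higher (0.98). The more abundant metallothioneins MT2A (0.176) and MT1E (0.025) were not called, nor was MT1F (0.139). Of 14 ion pumps and scaffolds, 2 were higher and 5 lower, which is 50%. They included carbonic anhydrase CA2 (-1.40) and SLC9A3R1 (NHERF1, a scaffold of ion exchangers, -0.92), which were lower, and the calcium pump ATP2B1 (0.78), which was higher. Of 22 mitochondrial partners of the SLC25 carriers, 2 were higher and 4 lower (27.3%), and of 12 targets and regulators of the NRF2 pathway 2 were higher and 4 lower (50%), with the heme oxygenase HMOX1 (1.05) among the higher ones. Of 23 further carriers whose symbols have other letters, 4 were higher and 2 lower (26.1%), led by SLC35F3 (4.95 and 5.85 against 1.80, 1.82 and 2.17 FPKM, 1.12) and the organic anion carrier SLCO4A1 (37.8 and 41.3 against 18.5, 22.4 and 20.0 FPKM, 0.93).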

How the data were processed

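Gene expression of Cal27-shGRK2 and Cal27 cells was measured by stranded mRNA sequencing, per the labels' protocols. Bowtie2 2.2.6, TopHat2 2.1.0 and Cuffdiff 2.2.1 were used with hg38, per the submitters' processing notes. What each tool did, the annotation and the strand setting are not given in the sources used here. FPKM was deposited per library and per group for 18678 genes, with the authors' log2 fold change, test statistic (a score), p-value and q-value, per the file headers. Because Cuffdiff-type FPKM values are estimates, overlapping and similar genes can exchange signal. An exon of another gene overlaps one of 78 of the 164 solute carriers, 65 of them on the opposite strand. Low FPKM values showed no shared step of 1 read (the fullest bin of ratios between libraries held 2.94% to 12.7% of low genes), so depth is unknown and counting intervals are left out.

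Genes averaging at least 1 FPKM over the 5 distinct libraries (13377) entered limma 3.58.1 in R 4.3.3 as log2(FPKM + 1), with trend and robust empirical Bayes and 3 residual degrees of freedom. Tests were two-sided, and p-values were adjusted by Benjamini and Hochberg over the 13377 genes, with a threshold of 0.05. The scale understates changes of low genes. Ratios are of mean FPKM. The script was tested on simulated data. The solute carriers, their classes and the related lists were chosen with earlier results of these data known. Genes named were, per class, up to 5 called rises and 5 called falls, the 3 most abundant, a list of well-known carriers and those at the level limit, and up to 3 called genes per direction of each related list. SLC7A1, SLC7A6, SLC12A4, SLC16A5, SLC20A1, SLC22A5, SLC25A12, SLC26A2, SLC29A1, SLC29A2, SLC39A8, ATF4, BSG, MT1E, MT1F and MT2A were named after their values were seen. Some genes are not reported here. Positions are from GENCODE 29, in which 18503 of 18678 identifiers and all 164 carriers were found, and promoters from RefSeq. A refit is one of the alternatives: a pseudocount of 0.1, a filter at 5 FPKM or none, scaling by median of ratios, to a common total of 1000000 or by quantiles, no trend or robust step in limma, 2 forms of replicate block, each library left out in turn, and a further Cal27-shGRK2 library computed from the authors' group value. The last was chosen after seeing the data: the deposited Cal27-shGRK2 value equalled the mean of the distinct columns in 48 of 13307 genes, and the Cal27 value that of its columns in 13339 of 13339, at a tolerance of 1e-04.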

Additional observations from a re-analysis of the deposited data

How the results depend on the processing

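The direction of all 61 called solute carriers was kept in every refit that tested them, and 28 kept their call as well. By the authors' deposited call, 16 solute carriers were higher and 20 lower, in place of 30 and 31, with 8 ion carriers in place of 18, 5 SLC25 carriers in place of 14 and 11 carriers of other substrates in place of 18. That call also marked 2252 of all genes in place of 3957 and 32 genes of the related lists in place of 52. With each library left out in turn, the solute carriers called higher were 14 to 32 and those called lower 18 to 32. By class these refits called 6 to 8 amino acid, 2 to 5 sugar, 7 to 17 ion, 5 to 13 SLC25 and 11 to 17 other carriers, and 2600 to 4019 of all genes. The low ends came from leaving out a Cal27-shGRK2 library, which leaves 1 library in that group. The scalings moved the median of all genes by at most 0.05 on the log2 scale, from -0.005 to 0.047 with a common total.

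With the replicate number as a block, 33 solute carriers were higher and 27 lower with the shared column taken as number 0, and 22 and 30 with it taken as number 1. Of all genes, 3960 and 3481 were called in these fits, against 3957 without a block. Same-numbered libraries deviated from their group means with a correlation of 0.08 (number 0) and 0.017 (number 2), so the numbers were not taken to pair the libraries. The small number of libraries, the unknown depth and the copied column limit what these data can show.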
